A study of Homo sapiens with 12 samples.

Results

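Gene expression after delivery of a miR-29 mimic was examined in A-498, an established human line of clear cell renal cell carcinoma. The comparison comprised 4 of the 12 RNA-seq libraries of the series, namely all libraries of this line: 2 from cells transfected with the miR-29 mimic (replicates 1 and 2) and 2 from cells transfected with the control mimic (replicates 1 and 3). Both groups received 10 nM of their RNA by reverse transfection with a lipid reagent, and total RNA was collected 48 h later and depleted of ribosomal RNA. The other libraries came from 786-O cells (2 libraries, mimic and control mimic) and from ACHN cells (6 libraries, of which 3 received an inhibitor of miR-29 and 3 its control). The study left out further libraries of the A-498 experiment over a doubt about their labels, and the labels of the 4 used here are taken as given. The mimic itself, a short double-stranded RNA, is not measured by such libraries. The comparison asks which transcripts change when miR-29 activity is raised, and the account below turns to pathways and gene families, most of whose members have no seed match of their own.

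MicroRNAs guide Argonaute proteins to messenger RNAs that carry a match to the seed, bases 2 to 8 of the microRNA, and such messages are degraded or translated less. The family miR-29 is best known for restraining collagens and other matrix genes, in kidney as in other organs. A change in the level of a direct target that is itself a regulator can pass on to genes without any site, so that a transfected mimic moves whole pathways. The 3 human members, as listed by RefSeq, are shown because they share 1 seed (capitals) and differ only downstream of it:
miR-29a-3p: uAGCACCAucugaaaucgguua
miR-29b-3p: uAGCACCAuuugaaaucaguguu
miR-29c-3p: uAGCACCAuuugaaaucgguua
The match in a messenger RNA reads TGGTGCT, or GGTGCTA where the site ends opposite base 1, and the 8-base form is TGGTGCTA.

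Libraries of both groups had similar depth, with 55398804 to 61462132 reads in genes, and reads from mitochondrial genes made up 1.08% to 1.24% of them. The first principal component of the 4 libraries separated mimic from control and carried 78.5% of the variance, while the biological coefficient of variation between replicates was 3.83%. The labelled origin was checked against 10 markers of renal carcinoma. PAX8, the lineage factor of renal epithelium, was at 78.5 and 70.9 CPM (counts scaled to the normalized library size) in the controls and at 129 and 134 with the mimic. VIM, KRT8 and KRT18, the filament genes that renal carcinoma cells co-express, lay between 741 and 2311 CPM in all 4 libraries. CA9, a marker of clear cell tumours, was low (7.36 to 11.4 CPM), and NDUFA4L2, with 27 reads in the 4 libraries together, did not pass the filter on low counts. PAX2 was lower still (1.25 to 1.33 CPM), and MME fell from 82.3 and 85.5 to 32.7 and 32.1 CPM. CA12 lay at 755 to 1049 CPM and LHX1 at 18.8 to 24.4 CPM. Of 18 markers of other cell types, 8 passed that filter; NEFL, a neurofilament gene, was at 243 to 254 CPM and the other 7 averaged at most 6.84 CPM per group.

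Of 19676 genes tested with edgeR's quasi-likelihood test, 5313 (27.0%) were lower and 5015 (25.5%) higher with the mimic at a Benjamini-Hochberg adjusted p under 0.05, so that 10328 (52.5%) moved in either direction. A change of at least 2-fold was reached by 792 genes that were lower (4.03%) and by 848 that were higher (4.31%). Most calls were therefore small, with a median absolute log2 fold change of 0.45. With libraries scaled by their total alone, 4352 genes were lower and 6191 higher, and the median of all genes moved from 0.0045 to 0.081 on the log2 scale, a shift smaller than the list medians that are given as directions below. With so many calls, the share of a list that changed is read against 27.0% and 25.5% throughout. Adjusted p-values below come from this fit, log2 fold changes are given with their standard error, and n is 2 libraries per group. The study calls its replicates biological without naming cultures or days, and p-values measure the spread between these libraries.

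Messages with a seed match fell more often than others. Most of the genes that changed had no match, as is true of most genes tested. Among protein-coding genes, 3074 had a 7-base match in at least 1 annotated 3′ UTR, which is 22.3% of those with an annotated 3′ UTR. Of these 3074, 51.9% were lower and 19.9% higher, with a median log2 fold change of -0.21. The median was -0.17 with 1 match, -0.30 with 2 and -0.48 with 3 or more. Among the 10687 protein-coding genes without a match, 27.9% were lower and 32.8% higher, with a median of 0.04. Of the 595 protein-coding genes that fell at least 2-fold, 51.7% carried a match. Of the 534 that rose at least 2-fold, 14.1% did, where the share over all was 22.3%. The first 6 genes below are shown because they fell and act in pathways described further on, and the last 3 because they rose with a match; all 9 were picked after their values were seen. Each line gives 27 bases of the 3′ UTR from GENCODE v44 on GRCh38, 5′ to 3′ on the strand of the gene, with the match in capitals.
MYBL2, chr20:43716270-43716296, plus strand: gggcggctccTGGTGCTAacaacaaag
CDK6, chr7:92606417-92606443, minus strand: cttgtccacaTGGTGCTctccatcttc
NRAS, chr1:114706822-114706848, minus strand: gagtaaagcaTGGTGCTAatggaccag
INSIG1, chr7:155308651-155308677, plus strand: ggtaggttgaTGGTGCTtaacaaacat
SLC7A5, chr16:87830611-87830637, minus strand: ctgtgatcctTGGTGCTgtgtgcccca
TRIB3, chr20:397047-397073, plus strand: ccactgatgcTGGTGCTcaggcacctc
MDM2, chr12:68841221-68841247, plus strand: ctcttatattTGGTGCTAtgtaaatga
TRAF1, chr9:120904075-120904101, minus strand: gccccaccttTGGTGCTttccagaatc
HMGA2, chr12:65952574-65952600, plus strand: gtgggagaggGGTGCTAaaaaaaaccc
A match is a stretch of letters and not a measured site, and the annotated isoform may not be the one these cells use.

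The largest changes among genes without a seed match included genes of secretion, adhesion and metabolism. IGFBP3 (chr7:45912245-45921874, minus strand), a secreted protein that binds insulin-like growth factors, was at 4402 and 4363 CPM in the controls and at 914 and 896 CPM with the mimic, a log2 fold change of -2.28 ± 0.03 (adjusted p = 8.5e-16). Groups that do not overlap were a condition for naming these genes, so that adds no support. For IGFBP3 the replicates differed by far less than the groups. MRFAP1 fell from 273 and 271 to 73.9 and 73.1 CPM, and PEDS1, the plasmanylethanolamine desaturase that makes plasmalogens, from 114 and 113 to 28.2 and 29.1 CPM. GJA1, the gap junction protein connexin 43, fell by 1.96 ± 0.05 on the log2 scale, and EDN1, the precursor of the vasoconstrictor endothelin 1, by 1.90 ± 0.08. OIP5, a centromere protein, MMP15, a membrane-bound matrix metalloproteinase, MALL and LHFPL6 fell by 1.90 to 2.22. IGSF3 and TUBA1A fell by 2.96 and 2.79, also with no match in an annotated 3′ UTR. TUBA1A is an alpha tubulin with near-identical paralogs, so that some of its reads may go uncounted. Among genes that rose, NT5E, the ectonucleotidase that makes adenosine, went from 5.82 and 5.51 to 20.5 and 20.4 CPM, and RRAD, a small GTPase, from 32.0 and 31.5 to 105 and 120 CPM. CHIC1 and LACC1 each rose by 1.71 on the log2 scale.

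**Figure D1:**
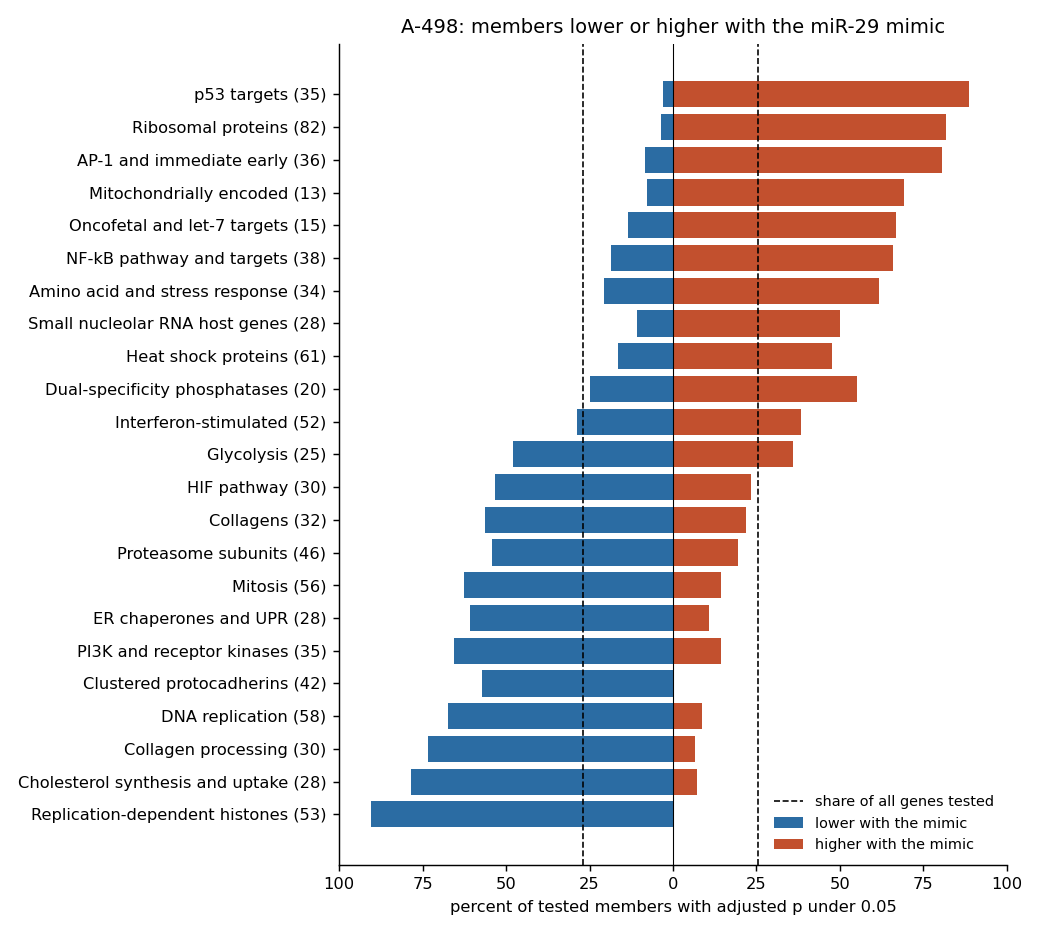
Percent of the tested members of 23 gene lists and families that were lower (bars to the left) or higher (bars to the right) with the miR-29 mimic at an adjusted p under 0.05, with the number tested in brackets and dashed lines at the share of all genes tested (27.0% lower, 25.5% higher). Replication-dependent histones lie farthest to the left, with 90.6% lower and none higher, and p53 targets farthest to the right, with 88.6% higher.

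Replication-dependent histone genes fell almost as a block. These genes supply the histones that package newly made DNA in S phase, and their messages end in a stem-loop instead of a poly(A) tail, so that libraries made by depletion of ribosomal RNA retain them. In bulk RNA, fewer cells in S phase and less histone RNA per cell cannot be told apart. Of 64 members 53 were tested, and 48 of these (90.6%) were lower, 13 of them at least 2-fold, and none was higher; the median log2 fold change was -0.86, against 0.0045 over all genes. The members that passed no test in either direction were H3C15, H3C8, H4C16, H3C6 and H4C9, at -0.57 to 0.02. Only H3C10 and H2AC6 carried a seed match, and among the 51 members without one the median was -0.86 as well.

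H2BC21, an H2B gene outside the main cluster, was at 109 and 99.5 CPM in the controls and at 47.9 and 46.7 CPM with the mimic (-1.14 ± 0.05, adjusted p = 2.9e-10). H1-3, a linker histone, fell from 211 and 207 to 92.9 and 97.1 CPM. H3C12 went from 56.0 and 54.0 to 23.2 and 23.5 CPM (-1.24 ± 0.05), and H2BC26, at a lower level, fell by 1.28 ± 0.12. In each of these genes both mimic libraries lay below both control libraries, but the genes were named with their values known. H1-2 and H1-4 moved less, by -0.64 and -0.56. All 5 classes shared the direction, with medians of -0.64 for H1 (3 genes), -0.91 for H2A (12), -0.85 for H2B (17), -0.86 for H3 (9) and -0.69 for H4 (12). Histone genes of 1 class are nearly identical in their coding part, so that a single gene's value is less certain than the family's.

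The promoters of most of the H2A and H2B genes hold an octamer, ATTTGCAT, the element bound by the factor OCT1 in histone H2B genes. In the RefSeq window from 250 bases before to 50 after the start (GRCh38.p14, 1 window per symbol, both strands searched), 21 of the 49 tested histone genes with a window held it (42.9%), against 172 of the 12321 tested genes with a window. It was present in 13 of 17 H2B and 8 of 11 H2A genes and in none of the H1, H3 and H4 genes, although all classes fell. All 21 genes with the octamer were lower. The windows of 3 H2B genes are printed because their genes are among those that fell at least 2-fold, with the match in capitals (in H2BC17 it is the reverse complement, farther from the start):
H2BC21, chr1:149886711-149886737, minus strand: ggagccctaATTTGCATaaggtggtta
H2BC9, chr6:26251556-26251582, plus strand: taagcacctATTTGCATaaaagaccta
H2BC17, chr6:27893267-27893293, plus strand: ttcctcttaATGCAAATgagctttctg
H2BC9 and H2BC17 fell by 1.11 and 1.05 on the log2 scale.

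Genes of DNA replication fell with the histones, by smaller amounts. All 58 members of this list were tested: 39 (67.2%) were lower, 5 higher, and the median was -0.28. GINS2, a subunit of the complex that activates the replicative helicase, showed the largest change, from 64.3 and 63.7 CPM to 18.1 and 17.4 CPM (-1.85 ± 0.05, adjusted p = 3.2e-12). CHAF1A, the large subunit of the factor that deposits new histones behind the fork, fell from 52.7 and 47.5 to 24.8 and 24.5 CPM. GINS1 and RPA1, a subunit of the single-strand binding protein, fell by 1.01 and 1.07, and both carry a seed match, which 6 members do. Over the 52 members without a match the median was -0.27, with 34 lower and 4 higher.

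Of the 9 genes named for minichromosome maintenance, which include subunits of the helicase, 6 were lower and none higher (median -0.45). MCM3, MCM8 and MCM9, at -0.07, -0.05 and 0.06, did not pass the test. MCM6 fell from 197 and 199 to 129 and 126 CPM, MCM2 from 179 and 168 to 116 and 118 CPM, and MCM10 and MCM5 by 0.68 and 0.52 on the log2 scale. MCM4 and MCM7 fell by 0.45 and 0.28. RRM1, the large subunit of ribonucleotide reductase, fell by 0.55, whereas PCNA, the sliding clamp, was 0.14 higher, and RPA2 rose by 0.52. The list as a whole was therefore lower without every member taking part. The number of members that were higher dropped from 5 to 3 when either mimic library was left out.

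An E2F element, TTTNNCGC, was found in the promoter window of 24 of 50 members with a window (48.0%) and in 9.96% of tested genes. Of these 24 genes 17 were lower and 1 higher, while most of the whole list was lower too. Whether E2F factors act here was not tested. The same letters occur in windows of CDC6, which loads the helicase, and MCM6:
MCM6, chr2:135876578-135876604, minus strand: ggctttgcaTTTGGCGCgaaatccctt
CDC6, chr17:40287877-40287903, plus strand: ccattcggaTTTGGCGCgagcgcggct
CDC6 fell from 105 and 105 to 53.8 and 54.5 CPM (-0.96 ± 0.04).

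Genes that control entry into S phase divided. Of 28 tested, 13 were lower and 9 higher, with a median of -0.14. CDK6, a kinase of G1 with 3 matches in its long 3′ UTR, went from 245 and 281 to 81.9 and 78.0 CPM (-1.72 ± 0.06), CDK2 fell by 0.96, and CDKN2C, an inhibitor of CDK4 and CDK6, by 1.39. CCND1, which encodes cyclin D1, rose by 0.49 ± 0.04 and CDKN1A, the inhibitor p21, by 0.57 ± 0.04. E2F5 rose by 0.92, and CDK4 fell by 0.27. The 7 members with a match accounted for 6 of the 13 that were lower, and the 21 without one had a median of -0.01.

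Mitotic genes were lower in 35 of 56 members and higher in 8, with a median of -0.25. MYBL2 (chr20:43667019-43716495, plus strand), the B-MYB factor that drives late cell cycle genes, fell from 110 and 99.3 to 18.1 and 17.2 CPM (-2.57 ± 0.06, adjusted p = 4.5e-13), and its 3′ UTR holds the 8-base match printed above. PLK1, a kinase of mitotic entry, fell from 92.2 and 83.9 to 38.5 and 40.5 CPM, and CDC25B, the phosphatase that activates CDK1, from 54.7 and 54.3 to 28.4 and 28.3 CPM. SPC24, a kinetochore subunit, fell by 0.95. The changes in this list were graded and not uniform: ASPM fell by 0.76 and TOP2A by 0.29, CENPF differed by -0.04 without passing the test, and the 8 that rose, among them AURKA (0.45) and HMMR (0.71), include genes of the mitotic spindle. Of the 56, 52 had no match, and their median was -0.25.

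The cell cycle homology region, TTTGAA, through which B-MYB and FOXM1 complexes and the repressive DREAM complex act, was in 33 of 48 windows (68.8%) against 10.2% of tested genes. Of those 33 genes 24 were lower and 3 higher, while most of the whole list was lower too. It is shown for PLK1 and for CDK1, the kinase of mitosis, which fell by 0.59:
PLK1, chr16:23678850-23678876, plus strand: cagcgccgcgTTTGAAttcggggagga
CDK1, chr10:60778160-60778186, plus strand: gtataataaaTTTGAActgtgccaatg

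**Figure D2:**
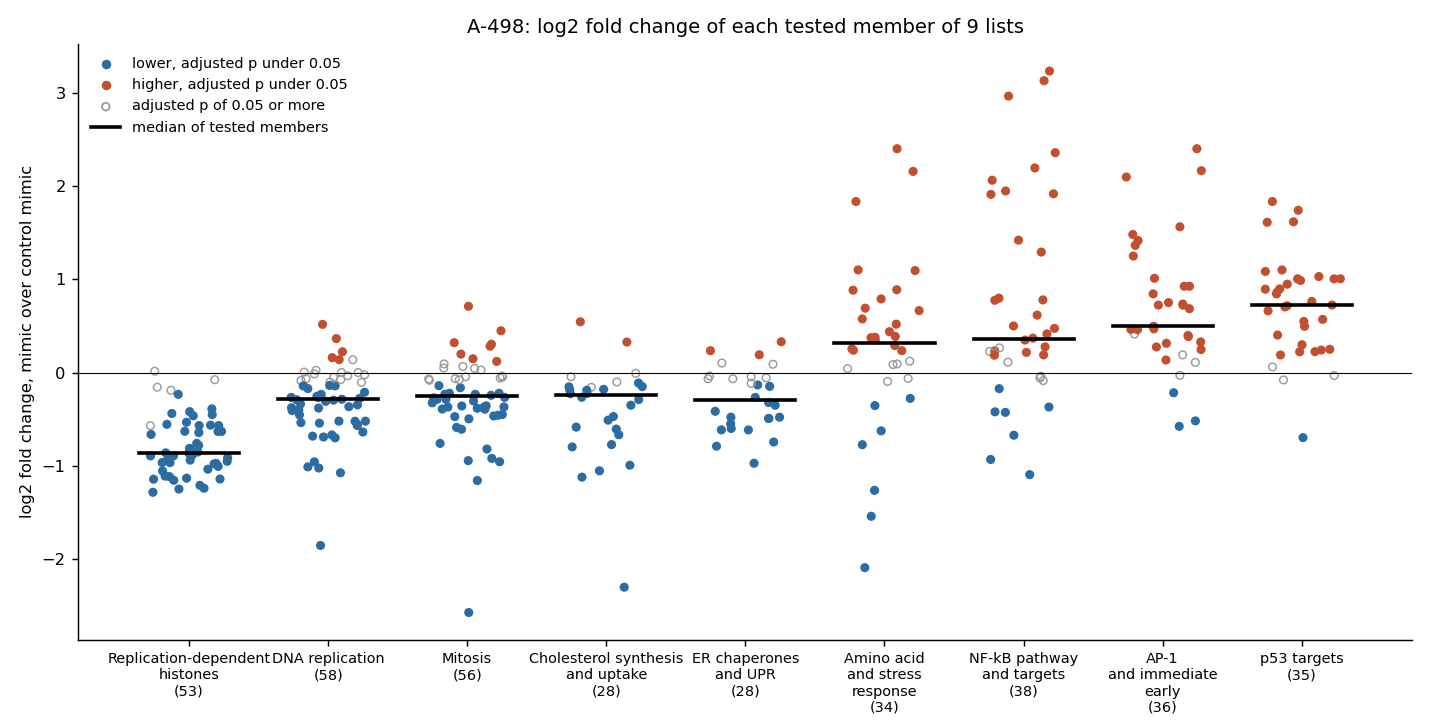
Log2 fold change (mimic over control mimic) of every tested member of 9 lists in A-498, with filled points for an adjusted p under 0.05, open points for the others and a bar at the median. Histones lie in a compact group around -0.86, the amino acid list spreads from -2.09 (SLC7A5) to 2.40 (ATF3), and all but 1 of the called p53 targets lie above 0.

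Cholesterol genes were lower in 22 of 28 tested members (78.6%) and higher in 2, with a median of -0.24. Under the other settings run, 15 to 23 members were lower. The pathway is set by SCAP, which escorts the factor SREBP2 to the Golgi, and by the INSIG proteins, which hold both back when sterol is ample. INSIG1 fell from 185 and 198 to 39.5 and 38.4 CPM (-2.30 ± 0.05, adjusted p = 1.1e-13), and SCAP from 44.1 and 41.1 to 19.2 and 20.1 CPM (-1.12 ± 0.06). HMGCS1, the synthase at the head of the pathway, fell from 137 and 142 to 67.9 and 67.1 CPM, and LSS, which closes the sterol ring, from 80.9 and 81.5 to 41.8 and 39.8 CPM. Farther along, FDPS fell by 0.26. The 5 members with a match were all lower (median -0.80), and 17 of the 23 without a match were lower (median -0.22).

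Among genes of fatty acid and triglyceride synthesis 13 of 26 were lower and 6 higher. SREBF1, the gene of SREBP1, fell by 0.53, and SCD, the stearoyl-CoA desaturase, by 0.48. ACLY, which supplies acetyl-CoA, rose by 0.33. The 19 members without a match had a median of 0.01.

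Chaperones of the endoplasmic reticulum, which fold secreted proteins such as collagen, fell together. Of 28 members, 17 (60.7%) were lower and 3 higher, with a median of -0.29 and no change of 2-fold. PDIA4, a disulfide isomerase, went from 679 and 654 to 397 and 400 CPM, HSP90B1, the chaperone GRP94, from 1099 and 1126 to 744 and 727 CPM, and CALR, which encodes calreticulin, from 859 and 833 to 580 and 577 CPM. CANX fell by 0.48. DERL3 fell from 4.71 and 3.91 to 1.59 and 2.84 CPM and SDF2L1 by 0.79 on the log2 scale, with more spread between replicates than in the other genes. ATF6 and ERN1, sensors of the unfolded protein response, were among the 3 members that rose (0.19 and 0.24), and XBP1, a factor of the same response, differed by -0.04 without passing the test.

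The endoplasmic reticulum stress element, CCAAT and CCACG with 9 bases between them, was in 6 of 25 windows of this list and in 0.122% of tested genes, which is 15 genes in all. Of the 6, 5 were lower, as was most of the whole list: CRELD2, HSP90B1, CALR, CANX and HSPA5. HSPA5 encodes the central chaperone BiP and fell from 389 and 385 to 291 and 290 CPM (-0.41 ± 0.03). The element in 4 of these genes is printed with both boxes and the bases between them in capitals (in CALR and CRELD2 as the reverse complement):
HSPA5, chr9:125241387-125241413, minus strand: ttcaCCAATCGGCGGCCTCCACGacgg
HSP90B1, chr12:103930212-103930238, plus strand: ctgaCCAATCGGAAGGAGCCACGcttc
CALR, chr19:12938380-12938406, plus strand: cacgCGTGGTCGACCATCATTGGtcgg
CRELD2, chr22:49918550-49918576, plus strand: ctctCGTGGCGAACTCGGATTGGgcca

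Growth factor receptors and the PI3K pathway were lower in 23 of 35 tested members and higher in 5, with a median of -0.37. EGFR went from 501 and 508 to 267 and 273 CPM (-0.90 ± 0.04), with no seed match. FGFR2 fell from 39.7 and 41.9 to 15.2 and 15.6 CPM, PIK3R3, a regulatory subunit of PI3K, fell by 1.13 on the log2 scale and the ligand gene PDGFD by 1.51. In the other direction MET, the receptor of hepatocyte growth factor, was 0.16 higher, and NRP2 rose by 0.21. The median was -0.34 with a match (17 genes) and -0.38 without (18 genes). Among Wnt ligands and Frizzled receptors 8 of 17 were lower and 1 higher; FZD6 fell from 123 and 131 to 81.1 and 82.3 CPM, and WNT5A by 0.92.

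Genes of glucose use and of the hypoxia pathway changed in both directions. NDRG1, a gene induced by hypoxia-inducible factors, fell from 1640 and 1566 to 448 and 435 CPM (-1.86 ± 0.03), with no match. SLC2A1 and SLC2A3, the glucose transporters GLUT1 and GLUT3, fell by 1.05 and 1.74, SLC16A1, a lactate transporter, by 1.18, and LDHA, lactate dehydrogenase, by 0.85. Of 25 glycolysis genes 12 were lower and 9 higher; GAPDH and PKM rose by 0.17 and 0.15 and ENO1 fell by 0.28. Of 30 genes of the hypoxia pathway 16 were lower and 7 higher, with HIF1A 0.21 lower and BHLHE41 1.09 higher.

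Genes named for the proteasome, its regulators and assembly factors included, were lower in 25 of 46 genes and higher in 9, with a median of -0.16. PSMA4, of the catalytic core, fell from 159 and 168 to 89.9 and 91.7 CPM, and PSMC3, of the regulatory particle, from 235 and 222 to 127 and 132 CPM. PSMD2 differed by -0.02 without passing the test. All 7 members with a seed match were lower, and of the other 39, 18 were lower and 9 higher.

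Clustered protocadherins, adhesion molecules whose alternative first exons are used in cell-specific choices, were lower in 24 of 42 tested genes and higher in none, with a median of -0.62. PCDHA10 fell from 19.8 and 21.2 to 7.65 and 6.88 CPM, PCDHB14 from 4.43 and 3.81 to 1.33 and 1.46 CPM, and PCDHGC3 from 29.1 and 27.3 to 16.5 and 17.4 CPM. DESeq2 called 11 lower instead of 24. The alpha and gamma genes share their last exons, where reads fit more than 1 gene and may go uncounted. Their counts may also not be independent of each other.

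Matrix genes, the usual subject of work on miR-29, are given here mainly for the members that did not fall. Of 42 tested genes on a list of established targets of the family, 38 were lower and 2 higher (median -0.92). Among collagens 18 of 32 tested were lower, at a median of -0.72, but 7 were higher, and DESeq2 called 4 higher. Of these 7, 6 carry a seed match, as do members that fell, such as COL4A1 and COL4A2. COL15A1 and COL4A6, which were higher, had only 61 and 190 reads in the 4 libraries together. COL27A1, a fibrillar collagen, went from 130 and 117 to 188 and 190 CPM (0.62 ± 0.05), although its 3′ UTR holds a match. COL18A1, the precursor of endostatin, differed by -0.03 without passing the test. The enzymes that fold and cross-link collagen were lower in 22 of 30, with PPIC falling by 2.26 and PLOD2 by 1.31; among the 18 without a match, 10 were lower and 2 higher. ITGB1, the shared beta chain of collagen receptors, fell by 1.70.

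Targets of p53, the factor that answers DNA damage and other stress with arrest or cell death, rose in the large majority. All 35 members were tested, and 31 (88.6%) were higher, 10 of them at least 2-fold, with a median of 0.72; 1 was lower. SESN2, a stress-induced inhibitor of mTORC1, was at 35.1 and 34.0 CPM in the controls and at 123 and 123 CPM with the mimic (1.83 ± 0.05, adjusted p = 6.8e-13). GADD45A, a damage-induced growth arrest gene, went from 26.7 and 26.1 to 85.6 and 90.5 CPM, and PMAIP1, the pro-apoptotic protein NOXA, from 19.5 and 20.8 to 63.4 and 60.2 CPM. All 3 had at least 3-fold higher means with the mimic.

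GDF15, a secreted stress cytokine, rose from 91.6 and 77.8 to 245 and 272 CPM (1.61 ± 0.07). MDM2, the ligase that degrades p53, rose from 529 and 542 to 1080 and 1071 CPM (1.01 ± 0.03, adjusted p = 9.9e-12) in spite of the 8-base match printed above, and RRM2B, the p53-inducible subunit of ribonucleotide reductase, from 294 and 311 to 654 and 626 CPM. CDKN1A went from 311 and 291 to 443 and 452 CPM, a smaller rise than in these genes. PPM1D, the phosphatase that switches p53 off and carries a seed match, differed by 0.06 (adjusted p = 0.34), and PLK2 by -0.03, both without passing the test. TRIAP1, an inhibitor of apoptosis, was the member that fell, by 0.70 ± 0.05. Whether a match was present made little difference to the medians, 0.70 in the 11 members with one and 0.74 in the 24 without.

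In the BCL2 family the 14 tested genes divided, with 6 lower and 7 higher. The inhibitor of apoptosis MCL1 fell by 0.40 and BCL2L1, the gene of BCL-XL, rose by 0.70. Among the pro-apoptotic genes PMAIP1 rose as above and BAX by 0.24, while BAK1 and BMF fell by 0.86 and 0.87, both with a match.

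**Figure D3:**
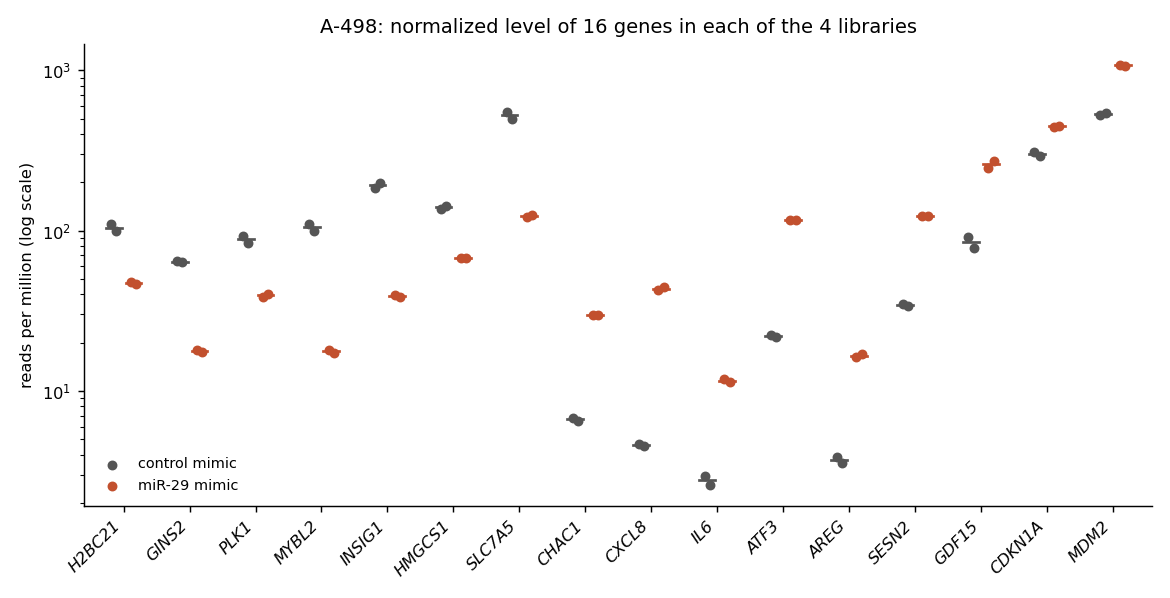
Normalized level (CPM, log axis) of 16 genes in each of the 4 A-498 libraries. Grey points stand for the control mimic, orange points for the miR-29 mimic and a short line for each mean. The 16 genes were picked after their values were seen. The pairs of points of a group lie close together, and in all 16 genes both mimic libraries lie on the same side of both control libraries: below for the 7 genes from H2BC21 to SLC7A5 and above for the 9 genes from CHAC1 to MDM2.

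Genes of the NF-kB pathway rose in 25 of 38 tested members and fell in 7, with 11 higher at least 2-fold and a median of 0.36. NF-kB factors are held in the cytoplasm by inhibitor proteins and switch on chemokines, cytokines and their own inhibitors once released. CXCL8 (chr4:73740519-73743716, plus strand), the neutrophil attractant interleukin 8, rose from 4.69 and 4.54 to 42.4 and 44.3 CPM (3.23 ± 0.07, adjusted p = 2.5e-13). CXCL2 rose from 4.90 and 4.10 to 17.5 and 17.1 CPM, and CXCL3 from 0.649 and 0.765 to 5.41 and 5.68 CPM. CXCL1 rose by 2.36 ± 0.16. CXCL1, CXCL2 and CXCL3 are close paralogs, and reads that fit more than 1 of them may go uncounted. Their separate values are therefore less certain than their common direction.

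IL6, a cytokine of the acute phase, rose from 2.95 and 2.60 to 11.8 and 11.3 CPM (2.06 ± 0.10). TRAF1, a signalling adaptor induced by NF-kB, rose from 7.16 and 7.50 to 32.9 and 34.2 CPM, with a seed match in its 3′ UTR. The inhibitor gene NFKBIA rose by 0.50 ± 0.05 and TNFAIP3, the deubiquitinase A20, by 0.80 ± 0.09. TNFAIP2, CSF1 and LIF, the members with the most reads, rose by 0.19 to 0.28. The members that fell include NFKB1 (-0.37), REL (-0.43) and BIRC2, a ubiquitin ligase of the pathway with a seed match (-1.09 ± 0.05). CCL2, the monocyte attractant, fell by 0.93 ± 0.06. Over all 12 tested chemokines 7 were higher and 3 lower, and of 12 interleukins 7 were higher and 1 lower; DESeq2 called 4 interleukins higher. CCL20, with no more than 3 reads in each control library, is left without a fold, and its point in the plot of list members is no bound. The list's median was the same with CCL20 at its lower bound.

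A kappa B element, GGAATTTCC, was in 9 of 31 windows of this list and in 0.455% of tested genes, which is 56 genes. Of the 9, 7 were higher and 2 lower, while most of the whole list was higher too. REL and NFKB1 were the lower ones, and CXCL8, CXCL3, CXCL1, CXCL2, NFKBIA, ICAM1 and NFKBIZ the higher ones. The 4 chemokine windows are shown because their genes lead the list, and they place the element 77 to 91 bases before the start:
CXCL8, chr4:73740469-73740495, plus strand: gcaaatcgtGGAATTTCCtctgacata
CXCL1, chr4:73869306-73869332, plus strand: ggaactccgGGAATTTCCctggcccgg
CXCL2, chr4:74099255-74099281, minus strand: ggagctccgGGAATTTCCctggcccgg
CXCL3, chr4:74038750-74038776, minus strand: ggagctccgGGAATTTCCctggcccgg
The windows of CXCL2 and CXCL3 are identical over these 27 bases.

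Immediate early genes and AP-1 factors, the first genes switched on by growth factors and stress, rose in 29 of 36 tested members (80.6%) and fell in 3, with a median of 0.49. ATF3 (chr1:212565334-212620777, plus strand), a stress-induced repressor, was at 22.3 and 21.9 CPM in the controls and at 116 and 117 CPM with the mimic (2.40 ± 0.05, adjusted p = 9.7e-14). AREG, an EGFR ligand, rose from 3.86 and 3.57 to 16.4 and 16.9 CPM, and PHLDA1 from 114 and 106 to 263 and 261 CPM. DUSP6 and SPRY1, feedback inhibitors of the ERK pathway, rose by 1.41 ± 0.14 and 1.48 ± 0.13 from below 2 CPM. FOSL2, with the most reads in the list, rose by 0.14. MAFG, which carries a match, fell by 0.58, and MYC by 0.52 ± 0.05. The 10 members with a match had a median of 0.74, with 9 higher and 1 lower. Among all dual-specificity phosphatases, some of which take phosphate from MAP kinases, 11 of 20 were higher and 5 lower. DUSP8, DUSP4 and DUSP1 rose by 1.54, 1.01 and 0.93 and DUSP5 fell by 0.22.

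Genes of amino acid supply and the integrated stress response changed in both directions. This response, set by the factor ATF4, raises amino acid synthesis, tRNA charging and transport when amino acids are short or proteins misfold. Of 34 members, all tested, 21 were higher and 7 lower, with a median of 0.32. CHAC1, an enzyme that breaks down glutathione, rose from 6.79 and 6.51 to 29.6 and 29.7 CPM (2.16 ± 0.07), and the factor DDIT3, also called CHOP, by 1.10 ± 0.06 on the log2 scale. The synthesis enzymes ASNS and PSAT1 rose by 0.88 and 0.89 and PHGDH by 0.69, and the synthetases EPRS1 and GARS1, which charge tRNAs, by 0.52 and 0.58. ATF4 itself was 0.29 ± 0.04 higher. ATF3 and SESN2 are members of this list too.

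The members that fell included transporters of amino acids. SLC7A5, the light chain of the large neutral amino acid transporter, fell from 550 and 497 to 121 and 125 CPM (-2.09 ± 0.05, adjusted p = 3.3e-13), and its partner SLC3A2 from 426 and 417 to 171 and 181 CPM (-1.26 ± 0.04). SLC7A11, which pairs with SLC3A2 to import cystine, fell from 572 and 645 to 362 and 351 CPM. SLC38A2 and SLC1A5, carriers of neutral amino acids, fell by 0.35 and 0.28, while SLC7A1, the carrier of cationic ones, differed by -0.09 without passing the test. TRIB3, a pseudokinase induced by ATF4, fell by 1.54 ± 0.06. SLC7A5 and TRIB3 carry the matches printed above, whereas SLC3A2 and SLC7A11 have none. An amino acid response element, TGATGNAA, was in 6 of 29 windows (20.7%) against 1.88% of tested genes. Of the 6, ATF3, CHAC1, ASNS and AARS1 rose, SLC3A2 fell and SLC7A1 did not pass the test, while most of the whole list was higher too. In CHAC1 the element reads as the reverse complement:
CHAC1, chr15:40953253-40953279, plus strand: cccctgccgTTGCATCActcctgccag
ASNS, chr7:97872459-97872485, minus strand: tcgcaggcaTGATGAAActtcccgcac

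Genes of the cytoplasmic ribosome rose by small and similar amounts. Of 82 tested, 67 (81.7%) were higher and 3 lower, and the median was 0.23. RPL28 rose from 286 and 269 to 392 and 407 CPM and RPS12 from 385 and 373 to 514 and 530 CPM, while RPS4X, RPLP0 and RPL7 rose by 0.14 to 0.18. RPS24 was the exception with a large change, from 698 and 705 to 325 and 335 CPM (-1.09 ± 0.03), with no seed match. RPL39L, a paralog expressed in few tissues, fell by 0.57. Ribosomal protein genes have many processed pseudogenes of similar sequence, and reads that fit more than 1 gene may go uncounted. A scaling by library totals raised the median to 0.31.

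Host genes of small nucleolar RNAs, spliced transcripts whose introns yield the guides of ribosomal RNA modification, rose in 14 of 28 and fell in 3. GAS5 went from 153 and 152 to 259 and 256 CPM (0.76 ± 0.04) and SNHG32 from 31.7 and 33.2 to 57.2 and 59.3 CPM. SNHG16 and SNHG29 rose by 0.27 and 0.37, and SNHG30 fell by 0.66. Of the 13 proteins encoded by mitochondrial DNA 9 were higher and 1 lower, with MT-ND6 rising by 0.57 and MT-ND1 by 0.52, and MT-CO2 and MT-CO3 at -0.03 and 0.04 without passing the test. The share of reads from mitochondrial genes was 1.08% and 1.09% in the controls and 1.24% and 1.22% with the mimic.

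Genes known as oncofetal or as targets of the microRNA let-7 rose in 10 of 15 tested members and fell in 2. HMGA2 (chr12:65824460-65966291, plus strand), an architectural chromatin protein of embryonic cells, was at 4.90 and 4.76 CPM in the controls and at 28.3 and 27.7 CPM with the mimic (2.53 ± 0.07, adjusted p = 3.8e-12). ARID3B rose from 4.53 and 4.13 to 12.4 and 13.2 CPM, HMGA1 from 68.5 and 59.3 to 121 and 121 CPM, and IGF2BP1, an RNA-binding protein, from 1.04 and 1.12 to 2.82 and 2.89 CPM. NRAS fell from 185 and 200 to 81.0 and 80.0 CPM, with the 8-base match printed above. IGF2BP3 was 0.20 lower. LIN28A and LIN28B, which block let-7 maturation, had 1 and 7 reads in the 4 libraries and were not tested. Of the 7 matched members 5 were higher and 1 lower.

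Several lists showed calls in both directions with a median near 0. Interferon-stimulated genes were lower in 15 and higher in 20 of 52 tested, at a median of -0.01 that turned positive with library-total scaling and without control replicate 3 or mimic replicate 1, and 23 were lower when control replicate 1 was left out. Within them GBP2 fell from 35.0 and 36.5 to 11.9 and 11.7 CPM, and TRIM22 rose by 0.82. Integrins (8 lower and 7 higher of 22), keratins (3 and 5 of 14), kinesins (15 and 7 of 35), and subunits of the nuclear-encoded respiratory chain (19 and 22 of 79) had medians between -0.07 and 0.11, each of which changed sign under at least 1 other scaling, filter or set of libraries. Kinesins were nonetheless lower more often than the 27.0% of all genes tested. Keratins still included KRT7, a marker of simple epithelia, which rose by 1.14. The integrins ITGAM and ITGB3 rose by 0.90 and 0.89, while ITGA5 fell by 1.13.

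The mimic in 786-O, another clear cell line, gave the nearest comparison, with 1 library per group and so with no error of its own. An interaction fitted over both lines, whose spread comes from A-498 alone, called a different effect in 6695 of 22587 genes (29.6%), more positive in A-498 in 13.2% and more negative in 16.5%. Several lists differed between the lines in most of their members. Of 38 NF-kB genes 30 had a more positive effect in A-498 and none a more negative one, and the median in 786-O was -0.82 against 0.36. Of 35 p53 targets 29 were more positive in A-498 and 2 more negative (median -0.10 in 786-O), and of 36 immediate early genes 23 and 3. Of 56 mitotic genes 53 were more negative in A-498 and none more positive, with a median of 0.60 in 786-O, and of 58 replication genes 45 and 1.

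The histone median was below 0 in 786-O as well (-0.60), where 47 of 53 members were below 0. Over all genes tested, 9032 of 19672 were below 0 there. Ribosomal protein genes had nearly the same median in both lines, 0.23 in A-498 and 0.18 in 786-O. CXCL8 moved by -2.10 in 786-O against 3.23 in A-498 (interaction, edgeR, adjusted p = 2.8e-17), and IGFBP3 by 1.43 against -2.28 (adjusted p = 8.1e-20). MYBL2, by contrast, moved by -2.48 and -2.57, a difference that did not pass the test (adjusted p = 0.52).

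**Figure D4:**
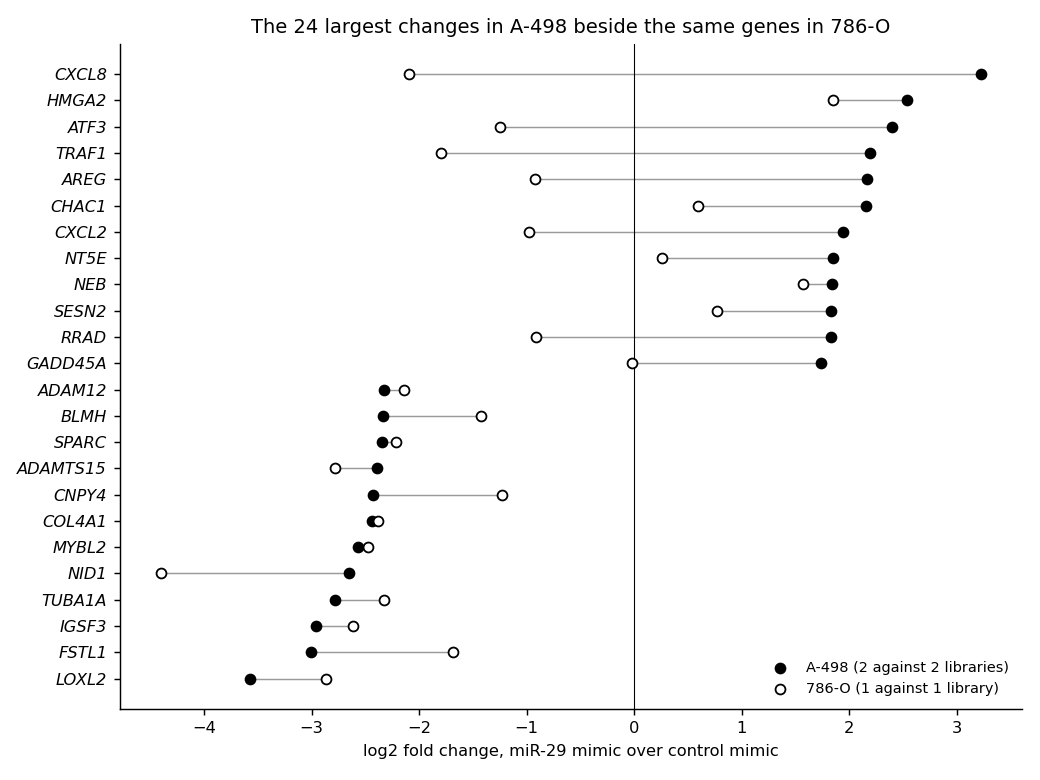
Log2 fold change (miR-29 mimic over control mimic) of the 24 genes with the largest changes in A-498, with filled points for A-498 and open points for 786-O joined by a line. The 12 genes that fell in A-498 also lie below 0 in 786-O, whereas of the 12 that rose CXCL8, ATF3, TRAF1, AREG, CXCL2, RRAD and GADD45A lie below 0 in 786-O.

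In ACHN cells, another renal carcinoma line, given the miR-29 inhibitor, 14.4% of 17904 tested genes were lower and 17.3% higher. Of the 595 protein-coding genes that fell at least 2-fold in A-498, 500 were tested in ACHN, where 327 were higher and 14 lower with the inhibitor. Members of the replication and mitotic lists were more often lower than higher in both lines. Of 58 replication genes 40 were lower and 3 higher in ACHN (median -0.22, against -0.28 in A-498), and of 56 mitotic genes 30 were lower and 6 higher. p53 targets, higher in A-498 with the mimic, were also higher with the inhibitor, in 22 of 35, and lower in 2, although the sizes were smaller (median 0.18 against 0.72). CDKN1A rose by 0.82 in ACHN and by 0.57 in A-498.

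Other lists had opposite signs in the lines. Chaperones of the endoplasmic reticulum were higher in 15 of 28 genes in ACHN and lower in none, and ribosomal protein genes were lower in 37 of 82 and higher in 4. Host genes of small nucleolar RNAs were lower in 15 of 27 tested in ACHN and higher in 1. Histones were mostly not called there (7 lower and 4 higher of 52, median 0.00). The 2 lines differ in reagent, origin and number of libraries, and these cannot be told apart; no test compared ACHN with A-498 directly.

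**Figure D5:**
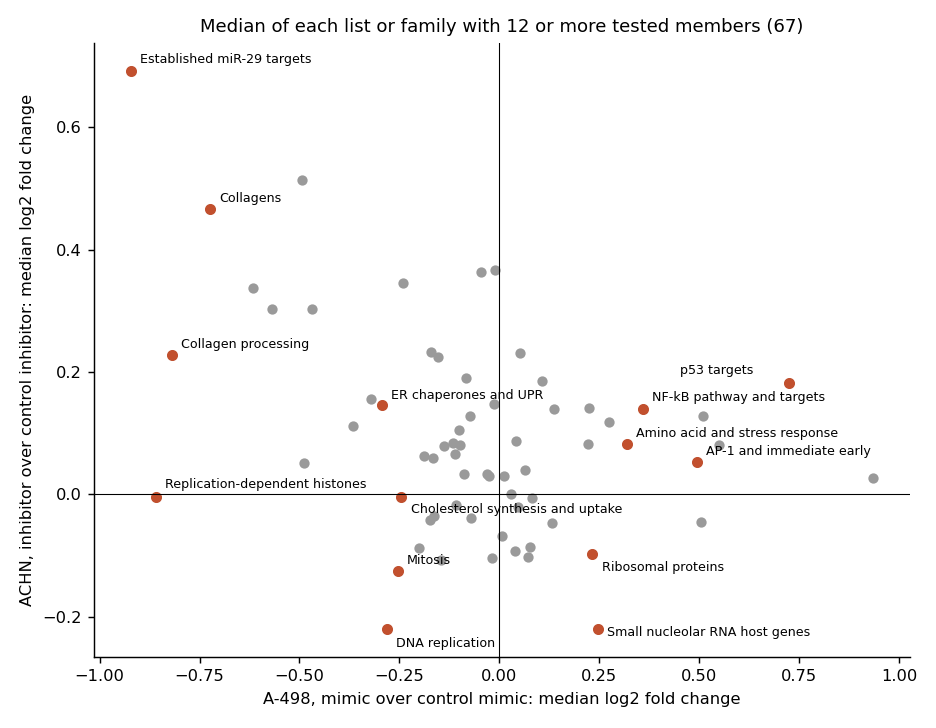
Median log2 fold change of 67 lists and families with at least 12 tested members, in A-498 (mimic over control mimic, horizontal) and in ACHN (inhibitor over control inhibitor, vertical). Collagens and established targets lie at the upper left (lower with the mimic, higher with the inhibitor), replication and mitosis at the lower left (lower with both) and p53 targets at the right above 0 (higher with both).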

How the data were processed

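RNA-seq was made from 4 A-498 libraries (2 miR-29 mimic, 2 control mimic), with 2 libraries of 786-O and 6 of ACHN for comparison. The authors prepared stranded libraries after ribosomal RNA depletion, aligned paired reads to GRCh38 with HISAT2 and deposited raw counts per gene from HTSeq-count. The deposited tables of the authors' own DESeq2 comparisons (fold changes and p-values) were not used. Reads assigned to no single gene (37.2% to 39.0% in A-498) stayed out of library sizes. Further A-498 libraries, which the study set aside because their labels may have been mixed up, were not analysed here. Of 58051 gene identifiers, 56948 had a symbol in GENCODE v44.

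Counts were filtered (filterByExpr by group), normalized by TMM and fitted for A-498 alone in edgeR (version 4.0.16, R 4.3.3; quasi-likelihood F-test), with Benjamini-Hochberg adjustment over all 19676 genes. The script was tested on simulated data first. Groups came from the labels. Counts of the 2 replicates of a group were too far apart to be 1 library deposited again (chi-square over its degrees of freedom, 6.54 in the controls and 4.27 with the mimic); no molecular identifiers were described, so count precision covers counting error only. The lines were compared by an interaction in edgeR over the 6 mimic and control mimic libraries, and ACHN was fitted separately.

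Seed matches were exact 7-base matches in any GENCODE v44 3′ UTR. Motifs were searched on both strands of RefSeq promoters (GRCh38.p14), and all 26 printed windows matched the genome sequence. The lists were written from general knowledge, so a motif's share in a list is no test of its factor. Whether the factors named with the motifs act in these cells was not tested. Other settings were DESeq2 1.42.0 (with its size factors), RLE and library-size scaling, no filter, an adjusted p under 0.01, another definition of a match, and leaving out each library.

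The members, lists, motifs and tests were chosen with earlier results of these data known. Genes named were the 12 lower and 12 higher protein-coding genes of largest change (those with groups apart and a mean log2 CPM of 3 or more), the same among genes with no match, and per list up to 4 called members of largest change and the 3 of highest CPM. Genes outside this rule, such as PPM1D, NFKBIA, TNFAIP3, BIRC2, ASNS, SLC3A2, TRIB3, CDC6, CDK1, HSPA5, AURKA, HMMR, MYC and those with printed windows, were named for their role after their values were seen. SOD2 had no matching row. Some items are not reported here.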

Additional observations from a re-analysis of the deposited data

Results flagged for a closer look

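Among the 24 genes with the largest changes in A-498, 18 had a different mimic effect in 786-O by the interaction test in edgeR (adjusted p under 0.05, spread estimated from A-498 alone, since 786-O has 1 library per group). Over all genes in that test the share was 29.6%. The 24 genes were picked for the size of their change in A-498, so a larger effect there is partly built in. Differences are given as the A-498 effect minus the 786-O effect on the log2 scale. Among genes that rose in A-498, the difference was 5.32 for CXCL8, 3.98 for TRAF1, 3.64 for ATF3, 3.08 for AREG, 2.92 for CXCL2 and 2.73 for RRAD, all of which were lower with the mimic in 786-O. GADD45A (1.76) was at -0.02 in 786-O. For NT5E, CHAC1, SESN2 and HMGA2 the differences were 1.59, 1.55, 1.05 and 0.68, with the same direction in both lines.

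Among genes that fell, the effect was stronger in A-498 for FSTL1 (-1.33), CNPY4 (-1.21), BLMH (-0.91), LOXL2 (-0.71), TUBA1A (-0.46) and IGSF3 (-0.35), and weaker for ADAMTS15 (0.39). All 7 fell in both lines.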

How the results depend on the processing

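In A-498 the counts of lower and higher genes stayed within 1.5 times of their main values under every setting run except 1: with DESeq2, 479 genes were higher at least 2-fold instead of 848, and the cause was not tested. DESeq2 called 4420 genes lower and 3500 higher. Leaving out each library in turn gave 4476 to 5510 genes lower, 3880 to 4915 higher, 772 to 826 lower at least 2-fold and 732 to 845 higher at least 2-fold, with the lone library assumed to vary like the others. The interaction with 786-O called 6046 genes with the spread of all 12 libraries and 6727 with library-size scaling, against 6695. Over the 439 genes named by rule, 3405 results kept their direction and side of the threshold, 81 lost a call, 24 gained one, and 2 reversed. EIF3C, whose control replicate 3 stood at 19.9 CPM against 7.25 in the other control, moved from -0.90 to 0.0060 without that library and to -1.45 without control replicate 1. FGF2, at 0.01 and not called with all libraries, moved to -0.0955 without control replicate 1 and to 0.108 without control replicate 3. No paired analysis was possible because the control (replicates 1 and 3) and mimic (1 and 2) libraries share only 1 number. Depth was similar in all 4 libraries, and with 2 libraries per group small calls at low counts are the least certain.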
